A study of Mus musculus with 48 samples.

Results

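Wild-type (WT) cerebellum was compared between 12 week old and 5 week old mice. It was represented by 12 of the 48 libraries of the series, which were all libraries labelled wild-type and cerebellum, 3 for each age of each strain. The mice were males and carried no mutant Ataxin-1 allele. The FVB/NJ animals were WT littermates of ATXN1-82Q transgenic mice, and the C57BL/6J animals were WT littermates of Atxn1-154Q knock-in mice. The remaining libraries came from the mutant littermates and from the inferior olive of both genotypes at the same ages. Each library was RNA sequencing of bulk tissue. Expression was given as FPKM, fragments per transcript length and per total of mapped fragments of the library. FPKM was normalized per table, and each of the 4 cerebellar tables held 1 strain at 1 age. Within a strain, age and table therefore cannot be told apart. A change was described as shared only where it was found in both strains. Fewer cells of a type and less RNA per cell cannot be told apart in bulk tissue.

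The cerebellar cortex is built from granule cells, the most abundant neurons of the brain, from Purkinje cells, which carry its only output, and from inhibitory interneurons, unipolar brush cells and Bergmann glia. In the mouse most granule cells are born and most Purkinje dendrites grow during the first weeks after birth. Myelin is laid down by oligodendrocytes over the same weeks and later, and it needs large amounts of newly made cholesterol. Newly formed oligodendrocytes pass through a short stage marked by Gpr17, Enpp6 and the non-coding RNA 9630013A20Rik before they form myelin. At 5 weeks a mouse is a juvenile close to sexual maturity, and at 12 weeks it is a young adult.

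The markers of cerebellar tissue were present in all 12 libraries. Gabra6 and Cbln3 of granule cells ranged from 218 to 447 and from 252 to 365 FPKM, Calb1 of Purkinje cells from 321 to 509, and Gdf10 of Bergmann glia from 50.8 to 99.0. Chat of motor neurons and Hoxb3 of the hindbrain stayed at or below 0.327 and 1.37 FPKM. The choroid plexus marker Ttr ranged from 371 to 1502 FPKM at 5 weeks and from 413 to 1561 at 12 weeks. Between 11356 and 11630 genes reached 1 FPKM per library. The fragment totals are not known, but the smallest steps between low values showed that depth differed by up to 1.59 times among the WT libraries of a table. Strain was the first principal component (37.0% of the variance) and age the second (15.6%). The FVB/NJ libraries of 12 weeks were the least alike, with a lowest correlation within their group of 0.972 against 0.981 to 0.990 in the other groups. The third component (11.8%) set replicate 1 of this group apart. Replicate 2, picked after its values were seen, held 59.4 FPKM of the acute-phase gene Lcn2 against 0.205 to 0.542 in the other 11 libraries, and 65.5 of the neutrophil gene S100a8 against 1.45 to 5.61. In C57BL/6J, replicate 1 of 12 weeks had the highest summed level of the microglial list.

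Of 12450 genes tested, 477 were higher at 12 weeks in both strains (3.83% of genes tested) and 586 were lower in both strains (4.71%). Such a call required an adjusted p below 0.05 in the fit to all 12 libraries and an unadjusted p below 0.05 with the same sign in each strain. The fit to all libraries alone called 863 genes higher (6.93%) and 973 lower (7.82%). The shifts were mostly small. The median change of the called genes was 1.21-fold for those that rose and 1.23-fold for those that fell, and 9 rose and 24 fell by at least 1 log2 unit. All 3 libraries of 12 weeks lay beyond all 3 of 5 weeks in each strain for 383 of the 477 and 493 of the 586. Over all genes tested 10.3% were separated in this way. The called genes were chosen on these same values, so their larger share follows from the rule and adds no separate evidence. Without FVB/NJ replicate 1 of 12 weeks the counts were 428 and 563, and without replicate 2 they were 402 and 533. Without rescaling of the libraries the balance turned, with 669 higher and 427 lower in place of 477 and 586, and the median of all genes moved from 0.0068 to 0.032 log2 units. With an adjusted p below 0.05 demanded of each strain alone, 119 genes were higher and 218 lower. Across all genes tested, the age differences of the strains had a Pearson correlation of 0.243, given as a description since genes are not independent and values of 1 age share a table within each strain.

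**Figure D1:**
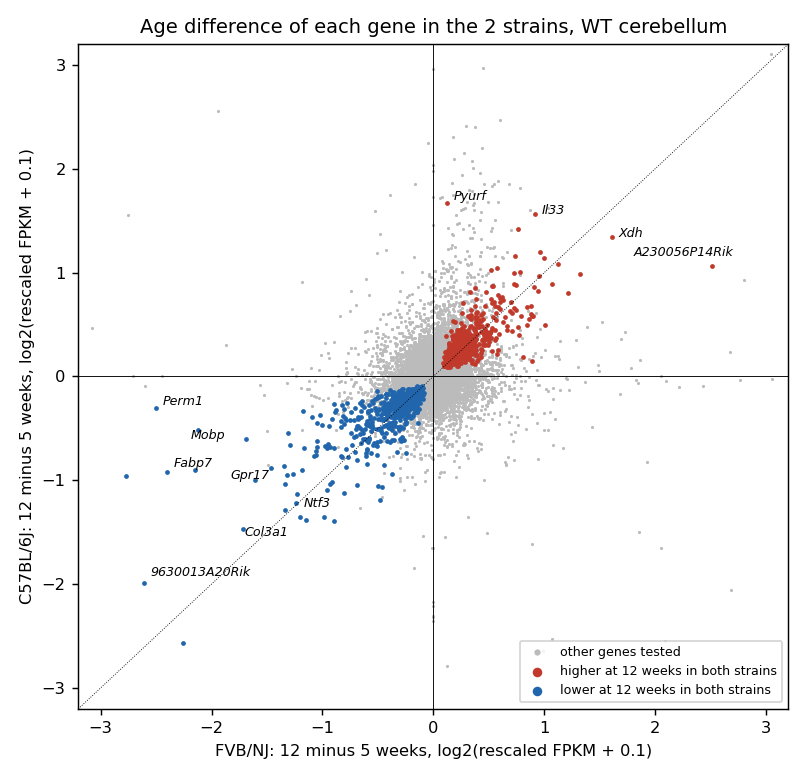
Age difference of each gene in FVB/NJ (horizontal) and C57BL/6J (vertical), both as 12 minus 5 weeks on the log2(rescaled FPKM + 0.1) scale; each point is a gene, red and blue points are the 477 and 586 genes called higher and lower in both strains, and 21 of the 12450 genes lie beyond the axes. The called genes lie in the upper right and lower left because the call requires it, and 9630013A20Rik, Fabp7 and Perm1 lie farthest out among the labelled genes that fell.

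The genes that rose most had unlike functions. Values of single libraries are given as rescaled FPKM in the order of the replicates 1 to 3, log2 differences as 12 minus 5 weeks over 6 libraries per age with strain as a covariate, and gene positions on mm10. Xdh, which encodes xanthine dehydrogenase (chr17:73883895-73950196), measured 0.881, 0.931 and 1.03 in FVB/NJ and 0.445, 0.455 and 0.372 in C57BL/6J at 5 weeks, against 2.63, 4.29 and 2.62 and 1.28, 1.1 and 1.3 at 12 weeks (log2 difference 1.48 ± 0.13 (SE), adjusted p = 4.1e-05). Il33, an alarmin cytokine that oligodendrocytes and astrocytes hold in the nucleus (chr19:29925114-29960718), measured 6.02, 5.44 and 5.58 in FVB/NJ and 8.98, 7.57 and 7.47 in C57BL/6J at 5 weeks, against 9.66, 11.1 and 11.7 and 30.9, 19.6 and 22.1 at 12 weeks (log2 difference 1.24 ± 0.13 (SE), adjusted p = 0.00018). In neither gene did any 12 week library reach down to a 5 week library of its strain. Abca8a, a lipid transporter, rose by a log2 difference of 1.16 ± 0.10 (SE), Etnppl, an ethanolamine phosphate lyase of astrocytes, by 0.98 ± 0.11, Ass1, which makes argininosuccinate, by 0.95 ± 0.14, and Syt6, a synaptotagmin, by 1.09 ± 0.21. The glutathione transferase Gstm6 rose by 0.88 ± 0.18. The largest increase of all, that of A230056P14Rik (1.78 ± 0.21), went with a change of the deposited gene model. Its locus spanned 177.5 kb in the 12 week FVB/NJ table and 57.2 kb in the 5 week one. Likewise Pyurf (0.89 ± 0.22) spanned 111.1 kb in the 12 week C57BL/6J table, where its values were 21.8, 23.5 and 22.2, and 7.3 kb at 5 weeks, where they were 6.76, 6.88 and 7.42. 2900052N01Rik (1.1 ± 0.33, adjusted p = 0.043) lost its call when any 1 of 10 libraries was left out. Its C57BL/6J values overlapped between the ages.

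The genes that fell most came from new oligodendrocytes, glia, matrix and neurons. 9630013A20Rik measured 3.35, 2.91 and 3.32 in FVB/NJ and 3.64, 4.3 and 3.82 in C57BL/6J at 5 weeks, against 0.432, 0.409 and 0.478 and 1.27, 0.685 and 0.865 at 12 weeks (log2 difference -2.3 ± 0.15 (SE), adjusted p = 4.4e-06). Fabp7, the fatty acid binding protein of radial and Bergmann glia (chr10:57784881-57788450), measured 138, 134 and 87.2 in FVB/NJ and 98, 121 and 104 in C57BL/6J at 5 weeks, against 33.4, 11.6 and 28 and 60.9, 55.6 and 53.1 at 12 weeks (log2 difference -1.66 ± 0.30 (SE), adjusted p = 0.0035). Ntf3, which encodes neurotrophin-3 (chr6:126101412-126166910), measured 6.73, 7.44 and 7.16 in FVB/NJ and 8.1, 8.2 and 9.29 in C57BL/6J at 5 weeks, against 3.41, 2.95 and 2.61 and 3.2, 4.17 and 4.19 at 12 weeks (log2 difference -1.18 ± 0.08 (SE), adjusted p = 5.8e-06). For each of these 3 genes every 12 week value lay below every 5 week value, whatever the strain. C1qtnf6 fell by 1.17 ± 0.13 (SE), and the values of Npas4, Col3a1 and Gpr17 are given with their groups below. The gene models of Perm1, Slc24a5 and C030039L03Rik also differed between tables. Perm1 measured 6.08, 5.5 and 5.47 in FVB/NJ at 5 weeks and 0.99, 0.728 and 1.07 at 12 weeks, but 1.2, 1.07 and 1.05 and 0.829, 0.93 and 0.871 in C57BL/6J, and its locus spanned 52.7 kb in the FVB/NJ 5 week table and 41.0 kb at 12 weeks. C030039L03Rik (-1.28 ± 0.07) had loci of 148.6 and 182.1 kb at 5 weeks against 32.3 and 31.9 kb at 12 weeks. Slc24a5 (-1.32 ± 0.24) changed by -2.12 in FVB/NJ and -0.52 in C57BL/6J. The part of the gene models in these values was not tested. Over all tested genes, 76.3% had loci whose lengths agreed within 1.1 times across the 4 tables, as did 76.5% of the shared increases and 80.4% of the shared decreases. Agreement of lengths does not show that a locus holds only 1 gene. The loci of Syt6, Fgf22 and Sqle spanned 718.4, 672.3 and 286.6 kb in each of the 4 tables, and what else they cover was not tested. Beyond that limit among the genes named here were also Gstm6 (3.01 times), C1qtnf6 (1.39), Gpr17 (1.33), Lims2 (1.33), Marcks (2.25), Ccnd1 (2.14), H3f3a (3.52), Syt9 (1.54), Cox6b2 (1.4), Fos (1.53), Gfap (1.38), Grin2c (4.33), Ttr (3.68), Gm15319 (6.41), Klhl10 (3.78), Chil3 (10.1), Chil4 (11.3) and 1500015O10Rik (8.13), while Npas4, Mobp, Kcnc4, Kcna1, Tet3, Rps24 and Calb1 were within 1.2 times.

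Oligodendrocytes and myelin formed the list with the most members that fell. Of 43 tested genes, 14 fell (32.6%) and 2 rose (4.65%) in both strains, against 4.71% and 3.83% of all genes tested. The median change was -0.28 log2 units, against 0.0068 over all genes tested. Mog, myelin oligodendrocyte glycoprotein (chr17:37010743-37023398), measured 92.1, 81.8 and 85.5 in FVB/NJ and 75.2, 77.9 and 72.1 in C57BL/6J at 5 weeks, against 35.8, 31 and 39.5 and 59.4, 40.8 and 44.5 at 12 weeks (log2 difference -0.97 ± 0.12 (SE), adjusted p = 0.00046). Mbp, myelin basic protein, measured 1878, 1634 and 1738 in FVB/NJ and 1602, 1839 and 1636 in C57BL/6J at 5 weeks, against 924, 788 and 1002 and 1388, 838 and 983 at 12 weeks (log2 difference -0.82 ± 0.11 (SE), adjusted p = 0.00082). None of the 6 values at 12 weeks reached the lowest of 5 weeks in either gene. Genes for the glycolipids of myelin also fell: Ugt8a, the galactosyltransferase that makes galactosylceramide, by 1.11 ± 0.11, Fa2h, the fatty acid hydroxylase, by 0.74, and Gal3st1, the sulfotransferase, by 0.70. Structural and junction genes among the 14 were Mobp (-1.15 ± 0.18), Cldn11 (-1.04), Mal (-0.93), Tspan2 (-0.82), Gjc3 (-0.60), Mag (-0.58), Cnp (-0.54) and Nfasc (-0.23). The 2 members that rose were Il33, described above, and the kinesin Kif5a (0.36), which neurons also express.

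The median of the list was -0.51 in FVB/NJ and -0.11 in C57BL/6J. The difference between strains passed the test for 6 of the 43 genes, Mobp, Cnp, Trf, Nkx6-2, Pllp and Klk6, and the signed difference was the lower in FVB/NJ in each. Mobp, a structural protein of myelin, changed by -1.69 in FVB/NJ and -0.60 in C57BL/6J. C57BL/6J replicate 1 of 12 weeks carried a summed FPKM over the list of 6751, against 4902 and 5026 in the other 12 week libraries of the strain and 6935 to 7456 at 5 weeks. Without that library 17 members fell in both strains, and without FVB/NJ replicate 1 or 2 of 12 weeks 14 fell. Mag and Gal3st1 both lost their calls without any 1 of C57BL/6J replicates 1 or 2 of 5 weeks or 2 or 3 of 12 weeks. Of the 33 members whose locus lengths agreed within 1.1 times, 11 were called lower.

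**Figure D2:**
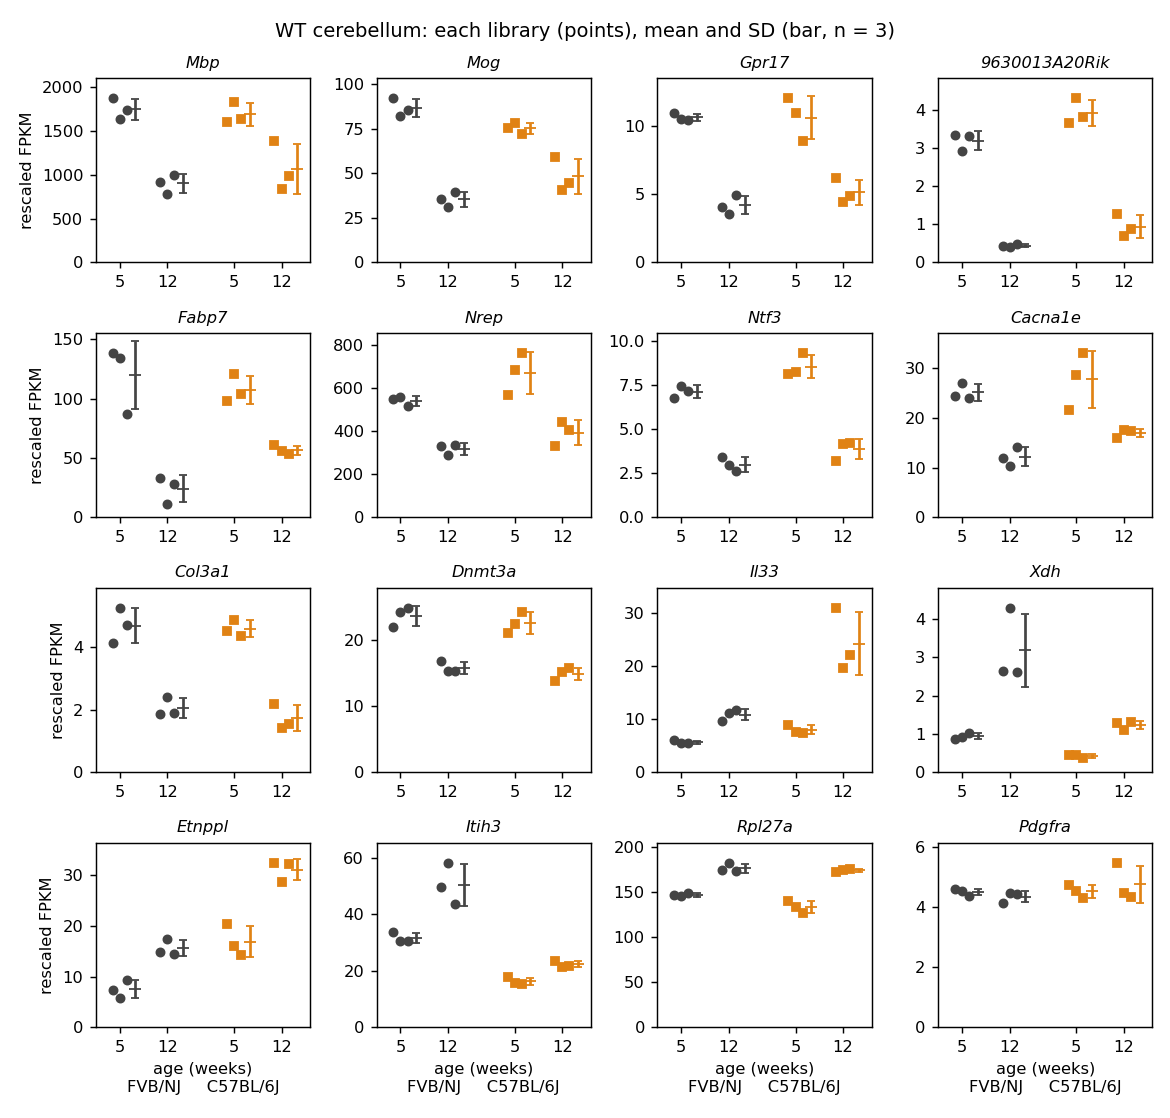
Rescaled FPKM of 16 genes in each library, with 5 and 12 weeks side by side for FVB/NJ (circles) and C57BL/6J (squares); bars give the mean and SD of 3 libraries, and each vertical axis starts at 0. Mbp, Mog, Gpr17, 9630013A20Rik, Fabp7, Nrep, Ntf3, Cacna1e, Col3a1 and Dnmt3a are lower at 12 weeks in both strains, Il33, Xdh, Etnppl, Itih3 and Rpl27a are higher, and Pdgfra overlaps.

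Genes of oligodendrocyte precursors and of newly formed oligodendrocytes were held in 1 list. Of 28 tested, 7 fell (25%, against 4.71% of all genes tested) and 0 rose in both strains, with a median of -0.23. Gpr17, a receptor of the committed precursor, measured 11, 10.5 and 10.5 in FVB/NJ and 12.1, 10.9 and 8.89 in C57BL/6J at 5 weeks, against 4.09, 3.59 and 4.92 and 6.17, 4.4 and 4.84 at 12 weeks (log2 difference -1.19 ± 0.11 (SE), adjusted p = 4.4e-05). Enpp6, the choline phosphodiesterase of newly formed oligodendrocytes, measured 6.52, 5.89 and 5.4 in FVB/NJ and 5.4, 7.39 and 6.95 in C57BL/6J at 5 weeks, against 2.24, 1.8 and 3.13 and 4.99, 4.22 and 4.11 at 12 weeks (log2 difference -0.93 ± 0.16 (SE), adjusted p = 0.003). The other members that fell were 9630013A20Rik, described above, Lims2 (-0.46 ± 0.09), Rras2 (-0.43), the matrix proteoglycan Vcan (-0.40) and the kinase Fyn (-0.24). Gpr17 and Lims2 had the same deposited locus in each table, and how reads were divided between them was not tested. Pdgfra, the growth factor receptor of the precursor, measured 4.59, 4.53 and 4.37 in FVB/NJ and 4.73, 4.54 and 4.29 in C57BL/6J at 5 weeks, against 4.14, 4.47 and 4.44 and 5.46, 4.46 and 4.33 at 12 weeks (log2 difference 0.01 ± 0.06, adjusted p = 0.95).

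Enzymes of cholesterol synthesis were found among the genes that fell. Of 31 tested genes of cholesterol and fatty acid synthesis, 9 fell (29%, against 4.71% of all genes tested) and 0 rose in both strains. The median was -0.27 in FVB/NJ and 0.01 in C57BL/6J. Hmgcs1, which makes the precursor of mevalonate (chr13:119690379-119708260), measured 92.6, 88.5 and 94.9 in FVB/NJ and 79.2, 78.8 and 76 in C57BL/6J at 5 weeks, against 50.3, 34.9 and 45.5 and 66.7, 55.5 and 56.8 at 12 weeks (log2 difference -0.74 ± 0.12 (SE), adjusted p = 0.0024). Its fall was larger in FVB/NJ, by a strain difference of 0.70 ± 0.16 (adjusted p = 0.034). Sqle, squalene epoxidase, measured 20.8, 21.5 and 24 in FVB/NJ and 20.9, 21.2 and 20.5 in C57BL/6J at 5 weeks, against 13.7, 10.1 and 12.3 and 17.7, 15.6 and 16.1 at 12 weeks (log2 difference -0.61 ± 0.10 (SE), adjusted p = 0.0022). Every 12 week library lay below every 5 week library of its strain in both genes. Smaller decreases were seen for Cyp51 (-0.60 ± 0.10) and Dhcr7 (-0.55 ± 0.10), which act late in the pathway, and for Idi1 (-0.46), Mvd (-0.40), Sc5d (-0.30) and Ebp (-0.22). Cholesterol genes are driven by SREBP-2, which binds sterol regulatory elements. The promoter of Hmgcs1 is shown because it alone among the 19 promoters found for the list held the element as searched here, TCACNCCAC on either strand with N for any base. The 250 bases before the start site from RefSeq (chr13:119690101-119690350, plus strand, build GRCm38.p6) carry the element, in capitals, 137 bases before the start site.
Hmgcs1: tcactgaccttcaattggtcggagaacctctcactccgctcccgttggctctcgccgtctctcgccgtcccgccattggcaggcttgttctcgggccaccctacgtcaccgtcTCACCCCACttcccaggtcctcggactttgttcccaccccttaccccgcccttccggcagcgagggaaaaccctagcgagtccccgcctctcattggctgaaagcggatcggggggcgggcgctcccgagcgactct
The same letters were found in 1.04% of 7219 promoters of tested genes and in 0.932% of those of genes that fell in both strains.

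Collagens and basement membrane genes formed the list with the largest share of members that fell, among lists with at least 9 tested. Of 39 tested, 13 fell (33.3%, against 4.71% of all genes tested) and 0 rose in both strains. The median was -0.22 in FVB/NJ and -0.31 in C57BL/6J. The summed FPKM of the 42 listed genes in the tables was lower at 12 weeks in C57BL/6J, at 551, 475 and 469 against 606, 634 and 572 at 5 weeks. In FVB/NJ the sums overlapped, at 552, 719 and 586 against 599, 605 and 579, and replicate 2 of 12 weeks had the highest sum of the 12 libraries. Col3a1, a fibrillar collagen of fibroblasts (chr1:45311538-45349706), measured 4.11, 5.24 and 4.7 in FVB/NJ and 4.51, 4.87 and 4.36 in C57BL/6J at 5 weeks, against 1.85, 2.42 and 1.9 and 2.19, 1.42 and 1.55 at 12 weeks (log2 difference -1.27 ± 0.11 (SE), adjusted p = 4.1e-05). Col4a1, a core chain of vascular basement membrane (chr8:11198423-11312826), measured 7.36, 7.96 and 7.22 in FVB/NJ and 8.86, 8.86 and 8.42 in C57BL/6J at 5 weeks, against 2.94, 6.07 and 3.29 and 4.52, 4 and 4.08 at 12 weeks (log2 difference -0.98 ± 0.13 (SE), adjusted p = 0.00082). Nid1, which links laminin to type IV collagen, measured 9.24, 11.2 and 10.3 in FVB/NJ and 8.6, 9.88 and 9.84 in C57BL/6J at 5 weeks, against 5.49, 5.11 and 5.48 and 5.17, 4.28 and 4.41 at 12 weeks (log2 difference -0.97 ± 0.06 (SE), adjusted p = 5.1e-06). In these 3 genes the ages did not overlap. The highest 12 week value of Col4a1, 6.07, came from FVB/NJ replicate 2. Lox, which crosslinks collagen, fell by 0.72 ± 0.13, and Col4a2 (-0.70), Nid2 (-0.63), Lama4 (-0.62), Col4a5 (-0.61), Lamc1 (-0.52), the collagen chaperone Serpinh1 (-0.52), Col15a1 (-0.46) and both chains of type I collagen fell too. The count was again 13 without each of the 3 libraries named above, and 13 of the 37 members with locus lengths within 1.1 times were called. Col15a1 and Nid2 both lost their calls without C57BL/6J replicate 1 of 5 weeks or 3 of 12 weeks.

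Vessels and meninges hold most of the collagen of the brain. Of 32 tested genes of endothelial cells and pericytes, 5 fell in both strains (15.6%, against 4.71% of all genes tested). The 5 were Kdr, the main VEGF receptor (-0.55 ± 0.11), Eng, a TGF-beta co-receptor (-0.39 ± 0.07), Itm2a (-0.33 ± 0.07), Pdgfrb of pericytes (-0.30 ± 0.07) and the organic anion transporter Slco1a4 (-0.25). Without FVB/NJ replicate 1 or C57BL/6J replicate 2 of 12 weeks this count was 3. Of 24 tested genes of leptomeningeal fibroblasts 3 fell (12.5%, against 4.71% of all genes tested). These were Col3a1, Col1a1 (-0.67 ± 0.12) and Col1a2 (-0.59 ± 0.09), which are collagen genes counted above as well. The list as a whole had a median of 0.0082, and its summed FPKM ranged from 244 to 315 at 5 weeks and from 186 to 298 at 12 weeks. Of 23 tested choroid plexus genes limma called none, with 1 lower at an unadjusted p below 0.05, and their summed FPKM overlapped, at 583 to 1985 at 5 weeks and 593.5 to 2048 at 12 weeks.

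The extracellular matrix of neurons changed in some members. Of 20 tested genes of perineuronal nets and lecticans, 4 fell (20%) and 1 rose (5%) in both strains, against 4.71% and 3.83% of all genes tested. Tnc, tenascin-C, a matrix protein of developing glia (chr4:63959785-64047015), measured 6.91, 8.12 and 6.41 in FVB/NJ and 6.03, 7.36 and 7.55 in C57BL/6J at 5 weeks, against 4.73, 3.18 and 4.15 and 3.8, 4.32 and 3.95 at 12 weeks (log2 difference -0.80 ± 0.10 (SE), adjusted p = 0.00035). Chst3, a chondroitin sulfotransferase (-0.57 ± 0.12), Adamts4, a lectican-cleaving protease (-0.51 ± 0.07), and Vcan, versican (-0.40 ± 0.07), fell less. Hapln4, a link protein found in perineuronal nets of the cerebellum, rose by 0.26.

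**Figure D3:**
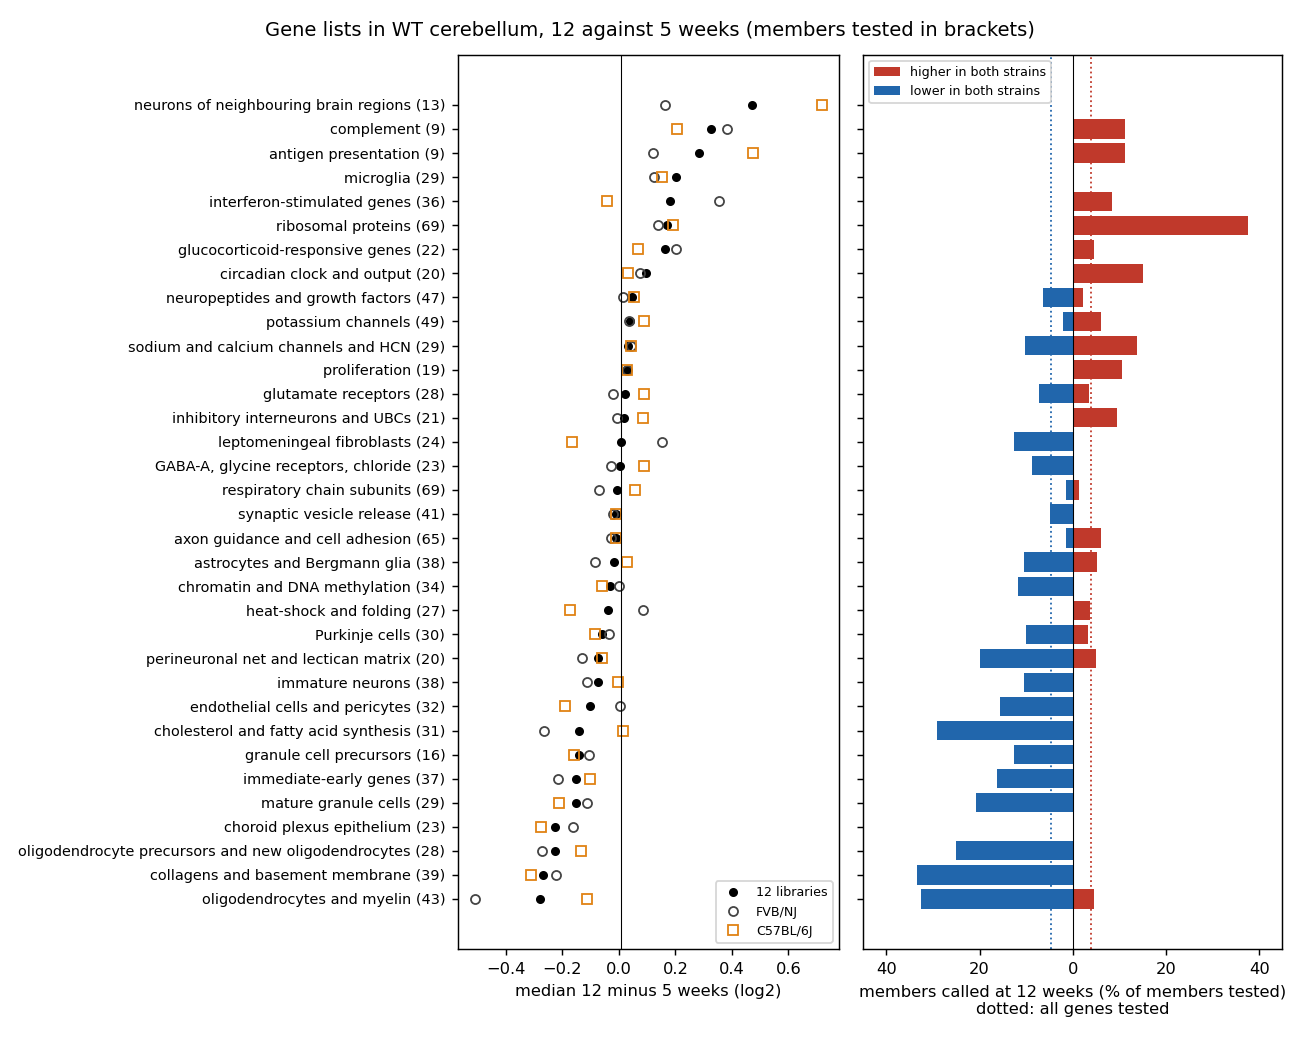
Left, the median difference between 12 and 5 weeks (log2) over the tested members of each gene list for all 12 libraries (filled) and for each strain (open); right, the share of tested members called higher (red) or lower (blue) in both strains, with dotted lines at the 3.83% and 4.71% of all genes tested. Lists with fewer than 9 tested members are left out; ribosomal proteins have the largest share of members that rose and collagens and myelin the largest shares that fell.

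Some transcripts of immature neurons were lower at 12 weeks. Of 38 tested genes of immature neurons, 4 fell in both strains (10.5%, against 4.71% of all genes tested). Nrep, which is made by growing neurons, measured 549, 558 and 517 in FVB/NJ and 568, 684 and 764 in C57BL/6J at 5 weeks, against 332, 288 and 335 and 330.2, 444 and 405 at 12 weeks (log2 difference -0.77 ± 0.08 (SE), adjusted p = 0.00017). Marcksl1, an actin-binding membrane protein of neurites (chr4:129513581-129515985), measured 45.1, 43.5 and 45 in FVB/NJ and 30.2, 31.1 and 26.7 in C57BL/6J at 5 weeks, against 24.4, 17.2 and 23.3 and 23.2, 16 and 18.3 at 12 weeks (log2 difference -0.84 ± 0.11 (SE), adjusted p = 0.00068). No 12 week value of either gene reached the 5 week range of its strain. Marcks (-0.61 ± 0.06) and the granule cell transcription factor Nfib (-0.31 ± 0.08) were the other members. Dcx and Sox11, the usual markers of new neurons, were near 1 FPKM at both ages, with log2 differences of -0.17 ± 0.11 (adjusted p = 0.33) and 0.18 ± 0.13 (adjusted p = 0.41). Of 16 tested genes of granule cell precursors, Ccnd1 and Ccnd2, cyclins of the first phase of the cell cycle, fell by 0.37 ± 0.05 and 0.40 ± 0.11. The share of this list that fell was 12.5%, against 4.71% of all genes tested. The call of Ccnd2 was lost without any 1 of 6 libraries.

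Of 40 listed proliferation genes 19 were expressed enough to be tested, and 2 rose in both strains (10.5%, against 3.83% of all genes tested). Mki67, expressed in dividing cells, averaged 0.117 FPKM at 5 weeks and 0.0673 at 12 weeks, under the limit for testing. Mcm5, a subunit of the replicative helicase (chr8:75109569-75128439), measured 1.78, 1.67 and 1.56 in FVB/NJ and 2.35, 1.99 and 2.01 in C57BL/6J at 5 weeks, against 2.6, 2.2 and 2.35 and 2.31, 3.27 and 3.14 at 12 weeks (log2 difference 0.46 ± 0.09 (SE), adjusted p = 0.0068). Cdc20, an activator of the anaphase-promoting complex, rose by 0.66 ± 0.15, with a deposited locus whose length differed by up to 3.03 times. In C57BL/6J the ages overlapped for both genes, and the call of Cdc20 was lost without C57BL/6J replicate 3 of either age. The promoter of Mcm5 is shown because replication genes are known targets of E2F factors, and its 250 bases before the start site (chr8:75109259-75109508, plus strand, GRCm38.p6) hold an E2F run as searched here (TTTCCCGC, TTTGGCGC or TTTCGCGC, either strand), in capitals with the bases it shares with a second, overlapping match, 153 bases before the start site. The capitals nearer the start mark a cyclic AMP response element, TGACGTCA.
Mcm5: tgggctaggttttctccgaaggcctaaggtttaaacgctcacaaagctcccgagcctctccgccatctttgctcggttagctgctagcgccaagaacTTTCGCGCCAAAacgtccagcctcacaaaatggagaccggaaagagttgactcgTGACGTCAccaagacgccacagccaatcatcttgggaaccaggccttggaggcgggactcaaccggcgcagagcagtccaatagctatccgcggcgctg
E2F matches were found in 4 of the 14 promoters of the proliferation list, 28.6%, and in 3.63% of all promoters of tested genes, 3.37% of those that rose and 2.8% of those that fell.

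Among astrocytes and Bergmann glia, 4 of 38 tested genes fell (10.5%) and 2 rose (5.26%) in both strains, against 4.71% and 3.83% of all genes tested. Fabp7, Tnc and Nes, the intermediate filament of progenitors (-0.49 ± 0.12), which fell, are expressed in immature glia, and the amino acid transporter Slc7a10 fell by 0.25. Itih3, a hyaluronan-binding inhibitor chain (chr14:30908572-30923760), rose and measured 33.7, 30.4 and 30.5 in FVB/NJ and 17.6, 15.8 and 15.5 in C57BL/6J at 5 weeks, against 49.6, 58.1 and 43.5 and 23.4, 21.4 and 21.8 at 12 weeks (log2 difference 0.56 ± 0.07 (SE), adjusted p = 0.00049), and the neurotensin receptor Ntsr2 rose by 0.26, a call that was lost without any 1 of 8 libraries. Gfap, the filament protein of mature astrocytes, measured 63, 59.5 and 61.3 in FVB/NJ and 62.2, 60.4 and 53.9 in C57BL/6J at 5 weeks, against 48, 75.2 and 61 and 86, 55 and 59.6 at 12 weeks (log2 difference 0.07 ± 0.12, adjusted p = 0.74). The count of members that fell was 2 without C57BL/6J replicate 3 of 12 weeks.

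Of 29 tested genes of mature granule cells, 6 fell (20.7%, against 4.71% of all genes tested) and 0 rose in both strains, and 23 had a difference below 0. Slc17a7, the vesicular glutamate transporter of parallel fibres (chr7:45163949-45176142), measured 197, 209 and 229 in FVB/NJ and 161, 163 and 174 in C57BL/6J at 5 weeks, against 176, 139 and 131 and 106, 144 and 149.6 at 12 weeks (log2 difference -0.43 ± 0.09 (SE), adjusted p = 0.011). Car4, a membrane carbonic anhydrase (chr11:84957786-84966044), measured 96.9, 99.2 and 104 in FVB/NJ and 128, 137 and 139 in C57BL/6J at 5 weeks, against 75.1, 76.8 and 87.5 and 63.3, 99.4 and 84.4 at 12 weeks (log2 difference -0.53 ± 0.10 (SE), adjusted p = 0.0059). Both strains had all 12 week values below those of 5 weeks. Cbln1, the synapse organizer that granule cells release onto Purkinje cells, changed by -0.36 ± 0.09 with a deposited locus whose length differed by up to 17.8 times, Zic1, a granule cell transcription factor, by -0.34 ± 0.09, Nrn1 by -0.32 and Calb2 by -0.30. The count of 6 was 3 without any 1 of FVB/NJ replicates 1 or 3 of 5 weeks or 2 or 3 of 12 weeks. Gabra6, the receptor subunit specific to mature granule cells, measured 378, 345 and 353 in FVB/NJ and 327, 409 and 447 in C57BL/6J at 5 weeks, against 332, 288 and 339 and 218, 333 and 277 at 12 weeks and did not pass the test (log2 difference -0.35 ± 0.11, adjusted p = 0.053). The summed FPKM of the list was lowest in C57BL/6J replicate 1 of 12 weeks, at 4166, against 4743 to 5311 in the other 12 week libraries.

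Of 30 tested genes of Purkinje cells, 3 fell (10%) and 1 rose (3.33%) in both strains, against 4.71% and 3.83% of all genes tested. The 3 were no longer called without rescaling. Atp2a3, a calcium pump (-0.30 ± 0.07), Gng13, a G protein subunit (-0.26 ± 0.08), and Pcp4, a calmodulin regulator (-0.25 ± 0.05), fell, and the transcription factor Ebf1 rose (0.16 ± 0.04). Leaving out any 1 of 5 libraries reduced the 3 to 1, and the call of Ebf1 was lost without C57BL/6J replicate 1 of 5 weeks or 2 of 12 weeks. Calb1, the calcium buffer of Purkinje cells, measured 386, 381 and 353 in FVB/NJ and 413, 509 and 498 in C57BL/6J at 5 weeks, against 386, 368 and 321 and 363, 451 and 420 at 12 weeks (log2 difference -0.13 ± 0.07, adjusted p = 0.24). Of 21 tested genes of inhibitory interneurons and unipolar brush cells 2 rose (9.52%, against 3.83% of all genes tested). Lgi2, a secreted synaptic protein, measured 22.6, 21.4 and 23.8 in FVB/NJ and 25.2, 24.1 and 26.4 in C57BL/6J at 5 weeks, against 27.4, 29.5 and 27.1 and 33.1, 28.7 and 30.8 at 12 weeks (log2 difference 0.30 ± 0.04 (SE), adjusted p = 0.0011). Gad2, which makes GABA, measured 42.2, 38.5 and 38.1 in FVB/NJ and 43.3, 43.6 and 44.2 in C57BL/6J at 5 weeks, against 46.2, 45.2 and 53.6 and 55.1, 46.6 and 48.2 at 12 weeks (log2 difference 0.24 ± 0.05 (SE), adjusted p = 0.012). The increases of Lgi2 and Gad2 were small, and all 6 values at 12 weeks lay above all 6 at 5 weeks. Without any 1 of C57BL/6J replicates 1 or 2 of 5 weeks or 1 of 12 weeks the call of Gad2 was lost.

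Lists of receptors and channels held genes that rose and genes that fell. Of 28 tested glutamate receptor genes 1 rose (3.57%) and 2 fell (7.14%), against 3.83% and 4.71% of all genes tested. Grm4, the presynaptic glutamate receptor of parallel fibres (chr17:27422387-27521403), measured 149, 148 and 159 in FVB/NJ and 136, 137 and 147 in C57BL/6J at 5 weeks, against 122, 101 and 99.9 and 82.5, 104 and 111 at 12 weeks (log2 difference -0.50 ± 0.07 (SE), adjusted p = 0.00093). The kainate receptor subunit Grik2 fell by 0.30 ± 0.07 and lost its call without any 1 of 7 libraries, while Grik3 changed by 0.18 ± 0.05 and lost its call without any 1 of 8 libraries. Of 23 tested genes of GABA-A and glycine receptors 2 fell in both strains (8.7%), Gabra2 (-0.26 ± 0.06) among them. None of the list was called without rescaling, nor without any 1 of FVB/NJ replicates 1 of 5 weeks or 2 of 12 weeks or C57BL/6J replicates 2 or 3 of either age. Grin2c, the NMDA receptor subunit of mature granule cells, measured 49.1, 52.1 and 56.4 in FVB/NJ and 43.9, 47.4 and 47.8 in C57BL/6J at 5 weeks, against 51.4, 47.6 and 43.7 and 39.8, 55.3 and 59.1 at 12 weeks (log2 difference -0.01 ± 0.09, adjusted p = 0.97). Among 49 tested potassium channel genes 3 rose (6.12%) and 1 fell (2.04%) in both strains. Kcnc4 (0.41 ± 0.08) and Kcnh1 (0.34 ± 0.08) were among those that rose, and Kcna1 (-0.25 ± 0.05) fell. The call of Kcna1 was lost without rescaling and without FVB/NJ replicate 1 or 2 of either age.

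Of 29 tested sodium and calcium channel genes with their regulators, 4 rose (13.8%) and 3 fell (10.3%) in both strains, against 3.83% and 4.71% of all genes tested. Cacna1e, the pore of R-type calcium channels (chr1:154390731-154884501), fell most and measured 24.4, 27.1 and 24.1 in FVB/NJ and 21.6, 28.7 and 33.1 in C57BL/6J at 5 weeks, against 12, 10.4 and 14.2 and 16.1, 17.5 and 17.4 at 12 weeks (log2 difference -0.87 ± 0.11 (SE), adjusted p = 0.00046). Cacna1d, an L-type pore, fell by 0.34 ± 0.07 and Cacna2d3, an auxiliary subunit, by 0.24. Cacna1i, a T-type pore (0.29 ± 0.06), Fgf12, which binds sodium channels (0.25 ± 0.04), Scn1a (0.24) and the leak channel Nalcn (0.20) rose. Without C57BL/6J replicate 2 of 5 weeks the count of those that fell was 1. Synaptic vesicle genes fell at about the share of all genes tested, with 2 of 41 (4.88%) against 4.71%. The 2 were Slc17a7, counted above with granule cells, and Syt9 (-0.25 ± 0.05). The call of Slc17a7 was lost without C57BL/6J replicate 3 of 5 weeks or 1 of 12 weeks.

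Immediate-early genes, which respond to neuronal activity within minutes, varied widely between libraries. Of 37 tested, 6 fell (16.2%, against 4.71% of all genes tested) and 0 rose in both strains. Npas4, the activity-dependent transcription factor (chr19:4984355-4990316), measured 2.27, 3.92 and 2.47 in FVB/NJ and 2.04, 2.06 and 2.11 in C57BL/6J at 5 weeks, against 1.94, 0.841 and 0.691 and 0.556, 1.05 and 0.823 at 12 weeks (log2 difference -1.31 ± 0.22 (SE), adjusted p = 0.0027). Dusp1, a phosphatase of MAP kinases (chr17:26505590-26562128), measured 27.1, 44.8 and 34.1 in FVB/NJ and 26.6, 31.7 and 29.6 in C57BL/6J at 5 weeks, against 24.5, 18.7 and 9.9 and 13.5, 18.9 and 20 at 12 weeks (log2 difference -0.91 ± 0.20 (SE), adjusted p = 0.01). The ages did not overlap within a strain for either gene. Nr4a1 (-0.79 ± 0.21), Fosl2 (-0.66 ± 0.18), Egr4 (-0.64) and Gadd45b (-0.24) were the other members. Fos measured 17, 30.8 and 32.1 in FVB/NJ and 22.9, 26.5 and 22.3 in C57BL/6J at 5 weeks, against 21.4, 6.73 and 5.17 and 7.93, 19.2 and 14.9 at 12 weeks and was called in the pooled fit but not in both strains (-1.17 ± 0.33, adjusted p = 0.032), and FVB/NJ replicate 1 of 12 weeks was within its 5 week range. Leaving out 1 library gave counts from 1 to 8, with 1 without C57BL/6J replicate 2 of 5 weeks or replicate 1 of 12 weeks, 2 without FVB/NJ replicate 3 of 12 weeks, 3 without any 1 of 5 others, and 3 without rescaling.

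Many immediate-early genes carry cyclic AMP response elements, TGACGTCA. The promoter of Dusp1 is shown because it is one of the 13 among 322 promoters of genes that fell that held this run, 4.04%, against 3.27% of all promoters of tested genes and 4.87% of those that rose. Its 250 bases before the start site (chr17:26508473-26508722, minus strand, GRCm38.p6) hold the element 143 bases and an E-box, CACGTG, 126 bases before the start site, both in capitals.
Dusp1: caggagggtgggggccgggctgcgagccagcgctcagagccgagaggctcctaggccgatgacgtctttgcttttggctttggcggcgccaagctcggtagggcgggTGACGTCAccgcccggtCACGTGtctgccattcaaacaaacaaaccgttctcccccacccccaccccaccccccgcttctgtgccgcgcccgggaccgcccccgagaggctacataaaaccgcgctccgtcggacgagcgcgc
E-boxes were found in 10.1% of all promoters of tested genes, 11.6% of those that rose and 8.7% of those that fell.

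Of lists of growth factors and of guidance molecules, 8.51% and 7.69% of the members were called in both strains, against 8.54% of all genes tested. Of 47 tested neuropeptides and growth factors, 3 fell, Ntf3, Cbln1 and the platelet-derived growth factor Pdgfc (-0.61 ± 0.10), and Fgf22, a presynaptic organizer, rose (0.61 ± 0.13). Fgf22 overlapped between the ages in FVB/NJ, and its call was lost without FVB/NJ replicate 1 or 3 of either age. Of 65 tested axon guidance and adhesion genes, 4 rose and 1 fell: Sema3f (0.64 ± 0.15), Plxnc1 (0.32 ± 0.05), the netrin receptor Unc5a (0.32 ± 0.07) and Sema7a (0.17) rose, and Sema4d (-0.36 ± 0.05) fell. The 4 were 2 without any 1 of FVB/NJ replicates 1 or 2 of 5 weeks or 1 of 12 weeks.

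Ribosomal protein genes were the list with the most members that rose. Of 69 tested, 26 rose (37.7%, against 3.83% of all genes tested) and 0 fell in both strains, and 37 were called higher in the pooled fit. The median was 0.14 in FVB/NJ and 0.19 in C57BL/6J, and 64 of 69 members were above 0. Rpl27a, whose deposited locus differed in length by up to 21.1 times, measured 147, 145 and 149 in FVB/NJ and 141, 134 and 127 in C57BL/6J at 5 weeks, against 175, 183 and 173 and 173, 174 and 176 at 12 weeks (log2 difference 0.32 ± 0.04 (SE), adjusted p = 0.00018). Rps23 measured 203, 196 and 201 in FVB/NJ and 214, 195 and 173 in C57BL/6J at 5 weeks, against 236, 249 and 242 and 258, 238 and 253 at 12 weeks (log2 difference 0.32 ± 0.05 (SE), adjusted p = 0.0015). Both had all 6 values of 12 weeks above all 6 of 5 weeks. Rps12 (0.33 ± 0.07, locus lengths up to 5.67 times apart) and Rps24 (0.30 ± 0.05) were the other largest increases. Leaving out 1 library gave from 18 to 27 members, and 18 of the 49 members with locus lengths within 1.1 times were called. Ribosomal protein genes have many processed pseudogenes, so their FPKM depend on how shared reads were assigned. Subunits of the respiratory chain, which are abundant in all neurons, had 1 member of 69 that rose, Sdha of complex II (0.14 ± 0.03), and 1 that fell, Cox6b2 (-0.34 ± 0.08), and the median was -0.0067. Each was 1.45% of the list, against 3.83% and 4.71% of all genes tested. The call of Sdha was lost without FVB/NJ replicate 1 of either age and that of Cox6b2 without any 1 of 4 libraries.

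DNA methylation is written by Dnmt enzymes and removed by way of Tet enzymes. Of 34 tested chromatin genes 4 fell (11.8%, against 4.71% of all genes tested) and 0 rose in both strains. Dnmt3a, the de novo DNA methyltransferase of neurons (chr12:3806007-3914443), measured 21.9, 24.2 and 24.8 in FVB/NJ and 21, 22.4 and 24.2 in C57BL/6J at 5 weeks, against 16.8, 15.3 and 15.3 and 13.9, 15.1 and 15.7 at 12 weeks (log2 difference -0.59 ± 0.05 (SE), adjusted p = 2.8e-05), with no overlap between the ages. Tet3 (-0.45 ± 0.08) and Tet1 (-0.40 ± 0.10), which oxidize methylcytosine, and H3f3a (-0.35 ± 0.04), which encodes the replacement histone H3.3, fell less. Tet1 overlapped between the ages in C57BL/6J. Among genes whose locus lengths agreed within 1.1 times, 2 were called.

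Genes of innate immunity that were called rose. Of 36 tested interferon-stimulated genes 3 rose in both strains (8.33%, against 3.83% of all genes tested) and none fell. The list as a whole did not rise in both strains, with a median of 0.36 in FVB/NJ and -0.04 in C57BL/6J. Within FVB/NJ its level was highest in replicate 2 of 12 weeks, and within C57BL/6J in replicate 1 of 12 weeks. Ifit3 (0.62 ± 0.10) and the immunity GTPase Irgm1 (0.35 ± 0.08) were among them. Leaving out 1 library gave from 1 to 4 members, with 1 without C57BL/6J replicate 2 or 3 of 5 weeks or 2 of 12 weeks. Tap2, a peptide transporter of antigen presentation (0.44 ± 0.10), and C4b, complement component 4 (0.78 ± 0.20), rose. Each was the only call among 9 tested genes of its list (11.1%, against 3.83% of all genes tested). The call of Tap2 was lost without FVB/NJ replicate 1 or 3 of 5 weeks or 2 of 12 weeks, and that of C4b without any 1 of 7 libraries. C4b reached 4.61 FPKM in FVB/NJ replicate 2 of 12 weeks against 1.01 to 1.49 at 5 weeks. Of 29 tested microglial genes 24 were above 0, with a median of 0.20, and limma called none by either rule, with 6 higher at an unadjusted p below 0.05. Their summed FPKM was 161 to 208 at 5 weeks and 158 to 289 at 12 weeks.

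**Figure D4:**
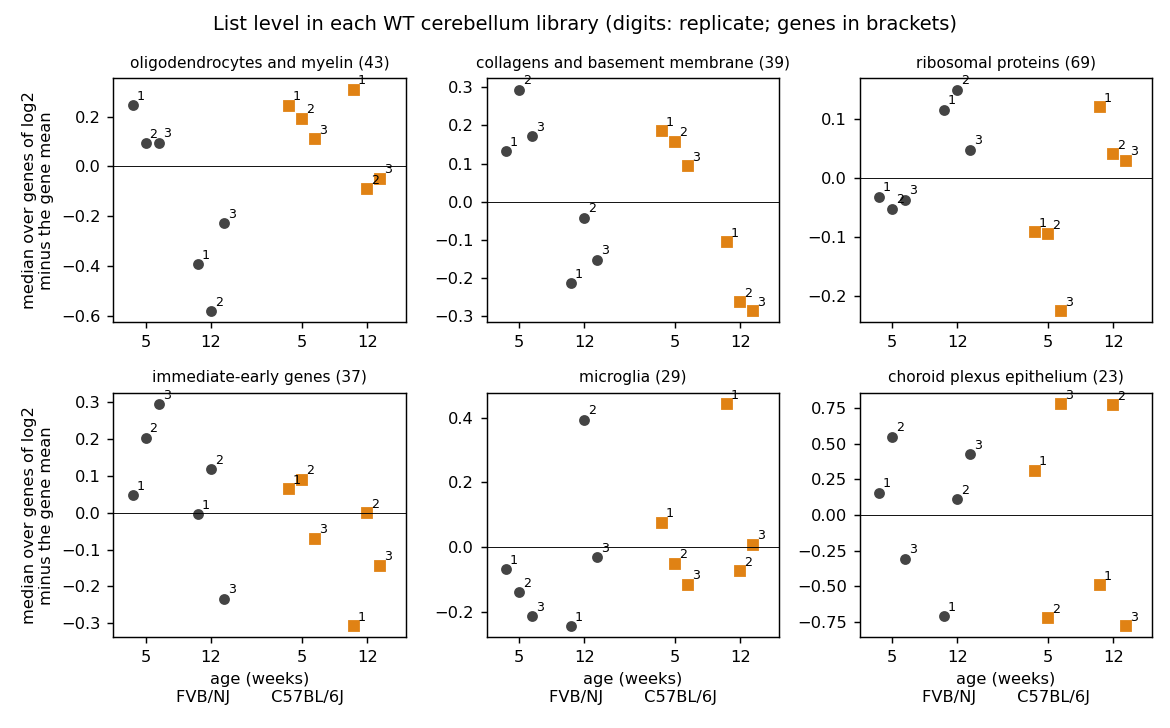
Level of 6 gene lists in each library, as the median over tested members of log2(rescaled FPKM + 0.1) minus the gene's mean over the 12 libraries; digits are replicate numbers, circles FVB/NJ and squares C57BL/6J. Collagens and ribosomal proteins separate the ages in both strains, myelin does so except for C57BL/6J replicate 1 of 12 weeks, and the choroid plexus list does not.

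The circadian clock and its output genes follow the time of day. Of 20 tested 3 rose (15%, against 3.83% of all genes tested) and 0 fell in both strains. Bhlhe40, a repressor of the clock (chr6:108660629-108666925), measured 24.7, 24.2 and 23.3 in FVB/NJ and 22.9, 21 and 20 in C57BL/6J at 5 weeks, against 29.7, 37.6 and 29.4 and 26.8, 26 and 26.6 at 12 weeks (log2 difference 0.36 ± 0.06 (SE), adjusted p = 0.0022). Hlf, a transcription factor of the PAR family (chr11:90336536-90390895), measured 31.7, 31.7 and 33 in FVB/NJ and 28.7, 26.8 and 25.5 in C57BL/6J at 5 weeks, against 37.2, 35.7 and 37.2 and 33.5, 30.8 and 31.5 at 12 weeks (log2 difference 0.22 ± 0.04 (SE), adjusted p = 0.0022). Per3, a period gene (chr4:151003652-151044665), measured 10.4, 11.7 and 12.8 in FVB/NJ and 5.8, 5.79 and 5.36 in C57BL/6J at 5 weeks, against 14.2, 14.2 and 13.5 and 6.39, 5.98 and 7.09 at 12 weeks (log2 difference 0.23 ± 0.06 (SE), adjusted p = 0.018). The ages did not overlap within a strain in the 3 genes, although Per3 differed more between strains than between ages. Per1 measured 19.9, 23.6 and 27.5 in FVB/NJ and 16.7, 15.9 and 9.51 in C57BL/6J at 5 weeks, against 23.3, 21.9 and 17 and 10.6, 17.4 and 14.4 at 12 weeks and was not called (log2 difference -0.08 ± 0.16, adjusted p = 0.77). The time of dissection was not given in the sources used here. PAR factors such as Hlf bind D-boxes, TTATGTAA. The promoter of Per3 is shown because it is 1 of 4 among 267 promoters of genes that rose that held this run, 1.5%, against 0.513% of all promoters of tested genes and 0.0% of those that fell. Its 250 bases before the start site (chr4:151044666-151044915, minus strand, GRCm38.p6) hold 2 copies, in capitals, 205 and 158 bases before the start site.
Per3: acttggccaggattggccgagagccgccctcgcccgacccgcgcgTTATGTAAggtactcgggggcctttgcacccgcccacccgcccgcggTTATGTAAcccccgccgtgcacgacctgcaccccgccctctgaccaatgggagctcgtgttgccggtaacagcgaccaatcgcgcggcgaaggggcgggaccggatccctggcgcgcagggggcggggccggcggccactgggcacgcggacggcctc

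Plin4, a lipid droplet protein of the list of glucocorticoid-responsive genes, rose by 1.01 ± 0.26 (adjusted p = 0.022). It was the only call among 22 tested (4.55%, against 3.83% of all genes tested). Its highest value, 3.98 FPKM, came from FVB/NJ replicate 2 of 12 weeks, and the call was lost without any 1 of 9 libraries. Hspb8, a small heat-shock protein, rose by 0.31 ± 0.08 as the only call among 27 tested (3.7%) and lost its call without any 1 of 8 libraries. Of 13 tested markers of neurons from neighbouring brain regions 11 were above 0 and 6 higher at an unadjusted p below 0.05, with none called in both strains. In the pooled fit 2 were called, Pou4f1 (1.32 ± 0.40) and Th (0.51 ± 0.12). The median of the list was 0.16 in FVB/NJ and 0.72 in C57BL/6J. Its level was highest in C57BL/6J replicate 1 of 12 weeks, at 0.81 log2 units above the gene means. The summed FPKM of the list was 486 to 629 at 5 weeks and 539 to 665 at 12 weeks. The list also names Pvalb, which is listed for Purkinje cells too, so this sum is not specific to neighbouring neurons. Limma called none of 8 tested replication-dependent histones (1 higher at an unadjusted p below 0.05), none of 2 erythrocyte genes and not the 1 clustered protocadherin tested (none at that p). Atxn1 itself measured 10.2, 11.4 and 10.5 in FVB/NJ and 9.88, 11.2 and 11.6 in C57BL/6J at 5 weeks, against 10.1, 10 and 10.8 and 9.55, 9.42 and 9.49 at 12 weeks and was not called (-0.12 ± 0.05, adjusted p = 0.13).

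Some calls depended on single libraries. Of 108 genes named by rule and called in both strains, 58 kept the call in each of the 12 omissions of 1 library, 35 lost it in 1 to 5 omissions and 15 in 6 or more. Besides genes for which this is given above, Perm1 and Zic1 lost it in 7 omissions, Pyurf, Nr4a1 and Fosl2 in 8 and Gng13 in 9. Among members given only by value, Col15a1 lost it in 6, Gal3st1, Ebp and Egr4 in 7 and Gadd45b in 9.

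The age difference differed between strains for 353 of 12450 genes (2.84%). The signed difference was the higher in C57BL/6J for 187 and in FVB/NJ for 166, and 264 had opposite signs in the strains. These genes were chosen because the strains differed, whereas a call in both strains demands the same sign in each. The rules thus favour opposite signs and few shared calls. Of the 353 genes, 19 were also called in both strains, as were 8.54% of all genes tested. Among the 19 were Mobp, Hmgcs1, Marcks (-0.79 in FVB/NJ against -0.42 in C57BL/6J), Adamts4 and Sema4d. The largest such differences were seen for Gm15319, LOC101243624, Chil3, Klhl10 and Chil4, each of which was at or near 0 in at least 1 group. Klhl10, a testis gene, measured 19.5, 21.2 and 21.5 FPKM in FVB/NJ at 12 weeks and 0.0786, 0.132 and 0.102 at 5 weeks. Gm15319 measured 34.5, 33 and 33.7 FPKM in FVB/NJ at 5 weeks and at most 0.0687 elsewhere. Chil4 was listed at 0 in all libraries but those of FVB/NJ at 12 weeks, where it measured 4.16, 6.69 and 4.5. In that table alone Chil3 and Chil4 shared a deposited locus, of 202.6 kb. The locus lengths of the 4 tables agreed within 1.1 times for 60.1% of the 353 genes, against 76.3% of all genes tested. Among genes within that limit 2.23% were called, and among those beyond it 4.79%. Leaving out C57BL/6J replicate 1 of 5 weeks raised the number to 701, and over all single omissions the lowest was 211.

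The inferior olive of WT mice of the same strains and ages, whose neurons send climbing fibres to Purkinje cells, was used to find where cerebellum differed. Of 12135 genes tested in the 24 WT libraries, 318 changed with age differently in the tissues (2.62%), and 1906 changed in the inferior olive (15.7%). Both tissues may come from the same animals, which the labels do not say, and this fit treated the libraries as independent. With strain, age and replicate number as a block, 190 genes differed between the tissues. Of the 1063 genes called in both strains of cerebellum, 1000 were tested here. The inferior olive had the same sign in 858 of them and a call with that sign in 430. The share of all genes tested with the same sign in both tissues was not determined, so the 858 cannot be set against it. The difference between tissues passed the test for 136 of the 1000, although these share the cerebellar values by which they had been chosen.

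Ntf3 fell by 1.18 in cerebellum and changed by 0.13 ± 0.13 (SE) in the inferior olive (tissue difference -1.32 ± 0.18, adjusted p = 0.00025). Cacna1e changed by 0.02 ± 0.10 in the inferior olive (tissue difference -0.90 ± 0.14, adjusted p = 0.0011). Npas4 changed by 0.33 ± 0.19 there (tissue difference -1.65 ± 0.27, adjusted p = 0.0013) and Dusp1 by -0.02 ± 0.16 (tissue difference -0.89 ± 0.23, adjusted p = 0.038). Neuronal genes of granule and Purkinje cells were also among the 24 of 104 named genes with a tissue difference. The age difference was the more negative in cerebellum for Grm4 (tissue difference -0.59), Nrep (-0.46), Gng13 (-0.50), Atp2a3 (-0.48) and Cbln1 (-0.42). A tissue difference below 0 does not mean that a gene also fell in the inferior olive. Myelin genes other than Mobp (-1.06) had no called tissue difference among those named. Mog changed by -1.05 ± 0.10 in the inferior olive, and Gpr17 changed by -1.4 ± 0.10. Fabp7 fell there as well, with a difference of -0.81 ± 0.25. The 4 genes with the largest tissue differences besides LOC101243624, namely Folr1, Kcnj13, Cldn2 and 1500015O10Rik, mark choroid plexus, and in cerebellum none of them passed the test.

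**Figure D5:**
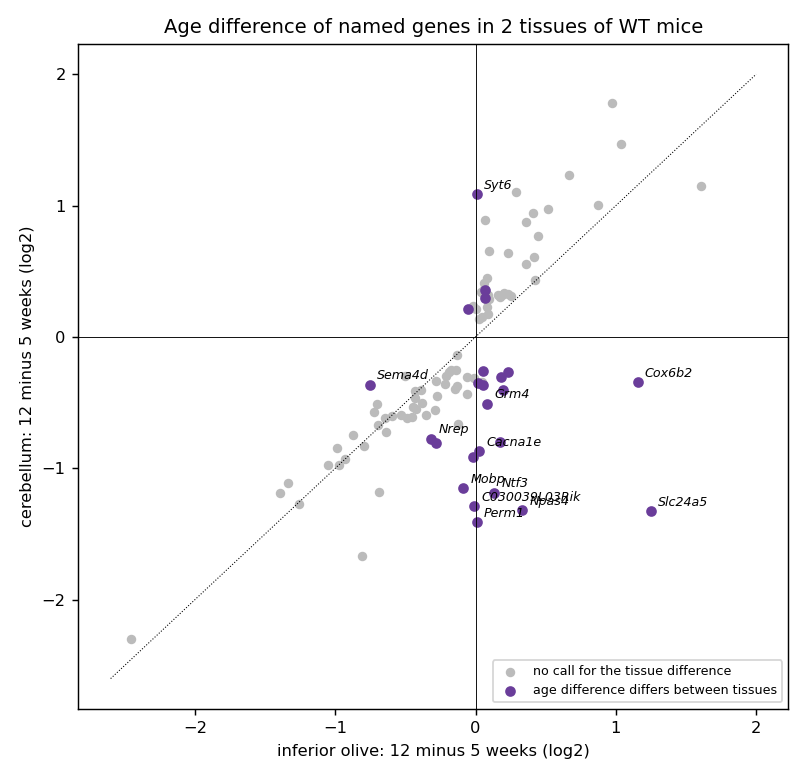
Age difference (12 minus 5 weeks, log2) of named genes called in both strains of cerebellum, in the inferior olive (horizontal) and in cerebellum (vertical), both from the fit to 24 WT libraries; purple marks the 24 of 104 genes whose difference between tissues had an adjusted p below 0.05, and the dotted line marks equal change. Ntf3, Cacna1e and Npas4 lie far below the line.

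The same ages were compared in the mutant littermates, which were in the same tables and thus share any difference between tables with the WT libraries. ATXN1-82Q mice express the human transgene in Purkinje cells under the Pcp2 promoter, and Atxn1-154Q mice carry the expanded repeat in 1 endogenous allele. Of 108 named genes called in both WT strains, 106 had the same sign in the mutants, the exceptions being Cdc20 and Ccnd1. The 108 genes were picked by their WT values, and the share with the same sign over all genes was not determined. Among these genes 9630013A20Rik changed by -2.15 ± 0.18 (SE) and Fabp7 by -1.6 ± 0.31 in the mutants. Col3a1 changed by -1.04 ± 0.10, Mog by -1.06 ± 0.06, Gpr17 by -1.15 ± 0.10 and Il33 by 0.97 ± 0.12. These values are a description, and no test was made between WT and mutant mice.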

How the data were processed

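RNA sequencing was done on 48 libraries of mouse cerebellum and inferior olive; the 12 WT cerebellar libraries (6 per age, 3 per strain and age) were analysed here. Per the labels and the study's methods, the authors aligned reads to mm10 with TopHat2 2.1.0 and processed them with Cufflinks 2.2.1, Cuffdiff and Cuffnorm. The deposited values were FPKM, normalized by the authors within each table of 1 strain, tissue and age. The tables also hold the authors' averages, fold changes and p-values, which were not used. Rows were matched by gene symbol, and 21506 symbols stood on 1 row of each of the 4 tables. Between 11.0% and 13.1% of rows per table named no gene and were left out. Each library was divided by the median ratio to the geometric mean over 11647 genes above 0.5 FPKM in all 12 libraries (factors from 0.978 to 1.04). Genes with a mean of at least 0.5 were tested on log2(FPKM + 0.1), which understates changes of low genes, with limma 3.58.1 (R 4.3.3, moderated test with a mean-variance trend) and strain and age as terms. Benjamini-Hochberg adjustment ran over the 12450 genes tested, or over 12135 in the test between tissues. Interactions of age with strain and with tissue were fitted in the same way, and the test between strains used 1 term per strain and age. Errors of log2 differences are SE. The p-values set the estimated difference against the residual spread between libraries. A difference between tables enters the estimated age difference itself, so the p-values do not account for it. The scripts were tested on simulated data.

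Total counts per library are not known from FPKM, so no counting interval is given. The genes named were the 10 largest shared increases and decreases with a mean of at least 1 FPKM, up to 4 called members of each of 37 gene lists (1030 of 1274 listed genes tested), the 5 largest interactions of each kind and a set of marker genes. A gene named for another reason is given with its value. The genes, lists and tests were chosen with earlier results of these data known. Gene coordinates are from GENCODE on mm10, and promoters from RefSeq (GRCm38.p6), which held 7219 of the 12450 genes. Pcp2, Hba-a1, Grin2b, Grin2a, Aif1 and Dbp were not on exactly 1 row of each table and are not analysed here. Alternatives changed the pseudocount, the filter, the rescaling, the trend, the strain term, the replicate block and the libraries, and, chosen after seeing the data, the gene models, GC content, transcript length and the strictness of the call. Single values of a few members of these lists are not reported here, although the members are part of the counts.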

Additional observations from a re-analysis of the deposited data

Results flagged for a closer look

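In 353 genes the age difference differed between the strains, and in 318 it differed between cerebellum and inferior olive, in each case by an interaction term with an adjusted p below 0.05. The values below are differences of log2 differences for genes named above. Each group held 3 libraries, too few to test single libraries as outliers.

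Between the strains (C57BL/6J minus FVB/NJ), the myelin gene Mobp differed by 1.09, the cholesterol gene Hmgcs1 by 0.70, the protease gene Adamts4 by 0.40, Marcks by 0.37 and Sema4d by 0.29, all with a larger fall in FVB/NJ. Perm1 differed by 2.2, Slc24a5 by 1.60, Pyurf by 1.55 and A230056P14Rik by -1.45, and the deposited loci of these 4 genes differed in length between tables. The 5 genes with the largest differences were Gm15319 (8.12), LOC101243624 (7.28), Chil3 (7.13), Klhl10 (-6.46) and Chil4 (-5.67). Their fitted values depend on the pseudocount, because at least 1 group was at or near 0. LOC101243624 measured 2.82, 2.78 and 2.55 FPKM in FVB/NJ at 5 weeks and 0.185, 0.148 and 0.185 at 12 weeks, against 0.15, 0.0768 and 0.0599 and 2.76, 2.89 and 2.72 in C57BL/6J. Chil3 measured 4.62, 4.44 and 4.71 and 0.0508, 3.53 and 0.219 in FVB/NJ and 0.23, 0.231 and 0.263 and 5.17, 6.32 and 5.39 in C57BL/6J.

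Between the tissues (cerebellum minus inferior olive), neuronal and synaptic genes with a more negative age difference in cerebellum were Ntf3 (-1.32), Cacna1e (-0.90), Grm4 (-0.59), Gng13 (-0.50), Atp2a3 (-0.48), Nrep (-0.46), Cbln1 (-0.42), Cacna1d (-0.37) and Syt9 (-0.31). The cyclin gene Ccnd2 (-0.61) had one too. Immediate-early genes in this group were Npas4 (-1.65), Nr4a1 (-0.97) and Dusp1 (-0.89). Mobp (-1.06), Tnc (-0.52), Cox6b2 (-1.5), Perm1 (-1.42), Slc24a5 (-2.57) and C030039L03Rik (-1.27) were further genes with a negative difference. Syt6 (1.08), Sema4d (0.39), Bhlhe40 (0.29), Hlf (0.27), Lgi2 (0.22) and LOC101243624 (4.6) had a positive one. Choroid plexus genes with such a difference, which did not pass the test in cerebellum, were Folr1 (-3.36), Kcnj13 (-2.97), Cldn2 (-2.78) and 1500015O10Rik (-2.73), and their age differences in the inferior olive were 2.92 ± 0.58, 2.74 ± 0.55, 2.39 ± 0.50 and 2.35 ± 0.50 (SE).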

How the results depend on the processing

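The p-values rest on 3 libraries per strain and age, and the depth of each library is unknown, so small changes of low genes are uncertain. All 1063 genes called in both strains kept their sign under every alternative in which they were tested. They had been chosen for the same sign in both strains, and the alternatives reuse most of the same values. The kept signs therefore add no separate evidence for the calls. With a change of at least 0.5 log2 units required as well, 71 genes were higher and 127 lower in both strains, 120 and 158 in the pooled fit, 227 differed between strains and 145 between tissues. With an adjusted p below 0.05 in each strain alone, the counts in both strains were 119 and 218. Without strain as a term they were 223 and 332, and 255 and 373 in the pooled fit. Among genes with an identical locus in the 4 tables, 88 and 142 were called in both strains, 155 and 222 in the pooled fit and 22 between strains, where 2616 genes were tested. Among the 9503 with locus lengths within 1.1 times, 183 differed between strains. Leaving out 1 library gave 339 to 508 higher and 452 to 629 lower genes in both strains, 572 to 947 and 663 to 981 in the pooled fit, 211 to 701 between strains and, with cerebellar libraries alone left out, 203 to 389 between tissues. The lowest pooled and tissue counts, 572 and 203, came without FVB/NJ replicate 2 of 5 weeks, and the count between strains was 211, 213, 226 and 233 without FVB/NJ replicates 2 or 3 of 5 weeks, FVB/NJ replicate 3 or C57BL/6J replicate 3 of 12 weeks. With the replicate number as a block, 508 genes were higher and 540 lower in both strains, 661 and 667 in the pooled fit, 228 differed between strains and 190 between tissues. Pairing of the samples of the 2 ages by number could not be settled. Same-numbered samples had correlations of -0.028, 0.047 and -0.077 in FVB/NJ and 0.272, -0.023 and 0.061 in C57BL/6J. Samples with other numbers ran from -0.045 to 0.076 and from -0.298 to 0.265. Whether the numbers pair the 2 tissues was not checked. Some uncalled genes changed sign. Over the omissions of 1 library LOC101243624 ran from -0.19 to 0.70, Grin2c from -0.072 to 0.055, Pdgfra from -0.044 to 0.029 and Gfap from -0.028 to 0.15. Without rescaling Grin2c gave 0.017, and with quantile normalization Pdgfra gave -0.0097 and Ttr 0.34. Of 3009 values of the 112 named genes past the threshold, 165 lost an adjusted p below 0.05 in the pooled fit and 0 changed sign. The choice of these genes by their values favoured kept signs here too. Of the 108 named genes called in both strains, 10 lost that call with the replicate block and 14 without rescaling. The cause of these changes was not tested.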
